A study of Rattus norvegicus with 9 samples.

Results

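Expression of 7 lymphocyte genes was followed in arteries of adult rat offspring. They were Cd3e, Cd3g and Cd2, which mark T cells, and Coro1a, Ltb, Cd37 and Fcmr, which are shared more widely among lymphocytes and other leukocytes. The genes were chosen by symbol, with earlier results of these data known. All 7 were found among the 30452 features of each count table, each on 1 line.

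T cells recognise peptides through a receptor whose antigen-binding chains cannot signal on their own. The CD3 proteins, among them CD3-epsilon and CD3-gamma, carry the cytoplasmic tyrosine motifs that start the signal, and CD2 is an adhesion molecule that binds CD48 in rodents. Healthy arteries hold few lymphocytes, mostly in the adventitia and the fat around the vessel, while organised lymphoid tissue holds them densely.

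The dams were fed a standard diet and drank ordinary water (control) or water with 20% sucrose (high sucrose) in pregnancy. Offspring were 3 to 5 months old, and the vessels were dissected under a microscope. Mesenteric artery came from control offspring in 3 libraries and from high-sucrose offspring in 3, numbered 1 to 3 in each group. Pulmonary artery came from control offspring in 3 libraries, numbered 1, 2 and 4, whose dams drank ordinary water as in the first group. The labels give no strain, do not say whether animals were pooled and do not say that replicates came from separate animals or litters, so p-values measure only the spread between these samples, which may be technical.

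Libraries held 10388231 to 15420546 counts. Levels are given as CPM, meaning counts relative to the size of their library, with totals adjusted by the TMM method across the 9 libraries. Smooth muscle genes, which define the tissue, were present in every library, but pulmonary replicate 4 stood apart. Its 10 smooth muscle markers summed to 3977 CPM against 12892 to 46547 CPM in the other 8 libraries, its 13 lung epithelium markers to 1390 CPM against 5.42 to 88.0 CPM, and its 7 adipocyte markers to 112 CPM against 382 to 952 CPM. Pulmonary replicate 2 held the most cardiac muscle RNA, at 24901 CPM over 10 markers, where replicate 4 had 2128 CPM and replicate 1 had 1084 CPM. The labels do not say whether lung or lymphoid tissue was taken with the vessel, and this was not tested. Results on the pulmonary artery are given with and without replicate 4. In whole-tissue RNA, fewer cells of a type and less RNA per cell cannot be told apart.

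Where these genes lie was taken from RefSeq (assembly GRCr8), while the counts were made on rn7. Cd3g, Cd3d and Cd3e are consecutive protein-coding genes on chromosome 8, Ltb follows Lta and Tnf on chromosome 20, and Fcmr follows Fcamr and Pigr on chromosome 13. Cd2 lies on chromosome 2, and Coro1a and Cd37 lie on chromosome 1 with other neighbours. Of the members, Cd3g, Coro1a and Cd37 are left out of the printed sequences. The promoters of 4 members at separate loci are shown as examples. They cover 250 bases before to 50 bases after the gene start, 5′ to 3′, and capitals mark matches to the motifs described next.
Cd3e (chr8:54211721-54212020, minus strand): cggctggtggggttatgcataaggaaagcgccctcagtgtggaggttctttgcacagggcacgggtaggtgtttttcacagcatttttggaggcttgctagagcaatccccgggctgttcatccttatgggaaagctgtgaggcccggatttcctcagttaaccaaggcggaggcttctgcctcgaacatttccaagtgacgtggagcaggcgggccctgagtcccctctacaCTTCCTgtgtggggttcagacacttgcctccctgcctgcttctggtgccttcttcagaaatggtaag
Cd2 (chr2:191412610-191412909, minus strand): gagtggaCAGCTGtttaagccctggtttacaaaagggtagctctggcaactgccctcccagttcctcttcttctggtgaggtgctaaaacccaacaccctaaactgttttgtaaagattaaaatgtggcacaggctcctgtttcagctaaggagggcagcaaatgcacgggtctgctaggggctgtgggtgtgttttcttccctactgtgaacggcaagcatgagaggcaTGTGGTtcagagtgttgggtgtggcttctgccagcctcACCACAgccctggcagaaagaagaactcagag
Ltb (chr20:3634005-3634304, minus strand): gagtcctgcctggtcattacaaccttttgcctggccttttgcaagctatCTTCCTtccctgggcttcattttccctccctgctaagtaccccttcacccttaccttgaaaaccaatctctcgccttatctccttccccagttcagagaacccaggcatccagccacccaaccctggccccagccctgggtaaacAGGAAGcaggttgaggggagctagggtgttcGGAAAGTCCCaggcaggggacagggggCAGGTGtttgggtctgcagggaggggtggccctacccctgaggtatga
Fcmr (chr13:44889430-44889729, plus strand): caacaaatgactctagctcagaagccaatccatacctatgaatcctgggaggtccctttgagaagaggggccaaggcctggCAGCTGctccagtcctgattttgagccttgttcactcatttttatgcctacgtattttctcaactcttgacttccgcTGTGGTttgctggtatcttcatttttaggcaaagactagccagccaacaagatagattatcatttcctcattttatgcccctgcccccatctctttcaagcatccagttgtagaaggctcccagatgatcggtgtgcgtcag

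The windows of all 7 members were searched on both strands for short motifs that were chosen with the sequences in view. The motifs do not overlap one another in these windows. AGGAAG, a core bound by ETS factors, was in 4 of 7 members (Cd3e, Cd3g, Ltb and Cd37) and in 34.5% of 33469 promoters. TGTGGT, bound by RUNX factors, was in 2 of 7 (Cd2 and Fcmr) against 17.3% of promoters. The E boxes CAGCTG and CAGGTG were in 3 of 7 (Cd3g, Cd2 and Fcmr) and 2 of 7 (Cd3g and Ltb), against 15.1% and 18.8%. The kappaB motif bound by NF-kappaB factors was, among the members, in the Ltb window only, on the opposite strand and 25 bases before the start, and in 0.111% of promoters. TATAAA was in 0 of 7 and in 14.2% of promoters. The Coro1a window held none of the 6 motifs. A match is a description of the letters and shows no binding.

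Transcripts of the T cell receptor complex were scarce in every library but one. Cd3e was at 1.68, 2.50 and 1.03 CPM in mesenteric controls 1, 2 and 3 and, in the high-sucrose libraries in the same order, at 1.08, 1.61 and 1.34 CPM. The pulmonary libraries 1, 2 and 4 held 3.89, 0.788 and 86.6 CPM of Cd3e. The mesenteric groups overlapped, and pulmonary replicate 2 was the lowest of all 9 libraries while replicate 4 was 22.2-fold above the next highest, pulmonary replicate 1.

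Cd3g, its partner in the complex, was at 1.48, 1.64 and 0.841 CPM in the mesenteric controls, 0.308, 0.759 and 1.34 CPM in the high-sucrose libraries and 2.15, 0.358 and 57.0 CPM in pulmonary replicates 1, 2 and 4. It followed the order of Cd3e in the pulmonary artery. The counts behind the low values were small, with 4 Cd3g counts in high-sucrose replicate 1 and 5 in pulmonary replicate 2 against 883 in pulmonary replicate 4.

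Cd2 was at 1.28, 2.32 and 1.77 CPM in the mesenteric controls and at 0.771, 0.190 and 0.668 CPM in the high-sucrose libraries, which all lay below the controls. The lowest of these values rested on 2 counts. In pulmonary replicates 1, 2 and 4 Cd2 was at 1.33, 0.859 and 49.8 CPM, so that the first of these lay within the mesenteric controls and the second below them.

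The 4 genes shared with other leukocytes had the same highest library. Coro1a, an actin-binding coronin of blood cells needed for T cell survival, was at 12.3, 16.8 and 29.1 CPM in the mesenteric controls, 6.02, 5.50 and 18.6 CPM in the high-sucrose libraries and 13.5, 7.45 and 756 CPM in pulmonary replicates 1, 2 and 4. High-sucrose replicates 1 and 2 lay below every control, and replicate 3 lay inside the control range.

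Ltb, the membrane-bound lymphotoxin subunit that drives lymph node formation, was at 1.62, 1.20 and 1.03 CPM in the mesenteric controls and at 0.848, 0.0949 and 4.68 CPM in the high-sucrose libraries. High-sucrose replicate 2 rested on 1 count and replicate 3 on 49, so this group spanned a wider range than the controls, on both sides. In the pulmonary libraries Ltb was at 0.497, 0.716 and 57.1 CPM, with the first 2 below every mesenteric control.

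Cd37, a leukocyte tetraspanin abundant on B cells, was at 5.12, 10.9 and 8.87 CPM in the mesenteric controls, 5.24, 6.93 and 12.9 CPM in the high-sucrose libraries and 9.44, 7.02 and 236 CPM in the pulmonary libraries. Apart from pulmonary replicate 4, all groups overlapped.

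Fcmr, the receptor for the Fc part of IgM on B cells and some T cells, varied least within the mesenteric artery. It was at 3.23, 3.79 and 2.99 CPM in the controls, 4.47, 4.18 and 4.68 CPM in the high-sucrose libraries and 5.88, 7.16 and 122 CPM in the pulmonary libraries. Fcmr was the member in which the 3 groups did not overlap at all, in the order mesenteric control, mesenteric high-sucrose and pulmonary. How many of all genes had such an order was not counted. Against the mesenteric controls, 2.66% of genes tested were higher without overlap in the high-sucrose libraries and 6.41% in the pulmonary libraries. Fcmr did not pass at an adjusted p under 0.05 by edgeR in either comparison, as given below.

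**Figure D1:**
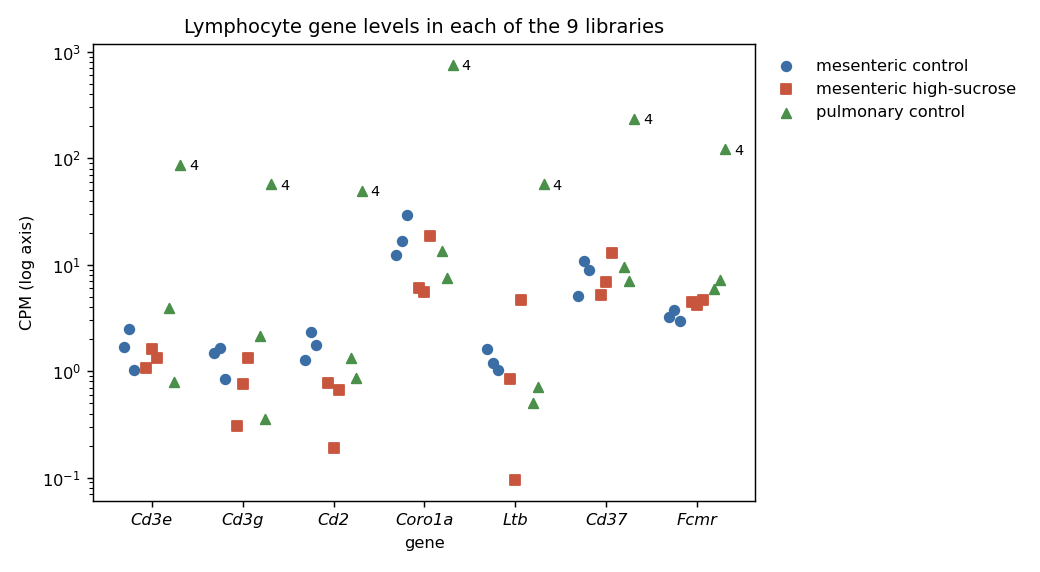
CPM (log axis) of each gene in each library, 3 points per group, with pulmonary replicate 4 marked by its number. Replicate 4 lies at 49.8 to 756 CPM for the 7 genes, and every other library at or below 29.1 CPM.

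The pulmonary group had the widest spread. On the log2(CPM + 0.5) scale, the standard deviation over the 3 pulmonary libraries was 2.39 (Fcmr) to 3.58 (Coro1a) for the 7 genes, against a median of 0.53 over 14623 genes with a mean of at least 1 CPM. Within the mesenteric controls it was 0.15 (Fcmr) to 0.61 (Coro1a), against a median of 0.30. Within the high-sucrose group it was 0.074 for Fcmr and 1.58 for Ltb, against a median of 0.29.

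The first comparison asked whether these genes differed in the mesenteric artery between high-sucrose and control offspring. None of the 7 passed at an adjusted p under 0.05 by the quasi-likelihood test of edgeR, where 0 of 13995 genes passed (0%). Unadjusted, 1 of 7 had a p under 0.05, against 279 of all genes (1.99%). DESeq2 called 3 genes (0.0214%) and 0 members, with 1 member at an unadjusted p under 0.05, against 341 of 13987 genes. Limma-voom called 0 genes and 0 members, with 2 members at an unadjusted p under 0.05, against 511 of 13995 genes.

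Of the 7 members, 4 had log2 fold changes below 0 and 3 above, where 50.3% of all genes tested were above 0. Cd2 had the lowest, −1.68 ± 0.60 (SE), with an unadjusted p of 0.026 and an adjusted p of 1.00 by edgeR, against 1.13% of all genes lower at an unadjusted p under 0.05. It ran from −2.01 to −1.29 with 1 library left out. The groups did not overlap for Cd2, which was lower in 3 of 3 high-sucrose libraries, against 3.33% of all genes lower without overlap. The other T cell members were at −0.37 ± 0.49 (Cd3e) and −0.72 ± 0.64 (Cd3g).

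Coro1a was at −0.93 ± 0.55, and without high-sucrose replicate 3 at −1.75. Ltb was at 0.54 ± 1.03, and without that same replicate at −1.40, so its direction rested on replicate 3. Cd37 was at 0.016 ± 0.44 and ran from −0.45 without high-sucrose replicate 3 to 0.28 without control replicate 2. Fcmr was at 0.42 ± 0.30, higher in 3 of 3 libraries without overlap, against 2.66% of all genes higher without overlap. Its adjusted p was 1.00 by edgeR, as for the other 6.

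**Figure D2:**
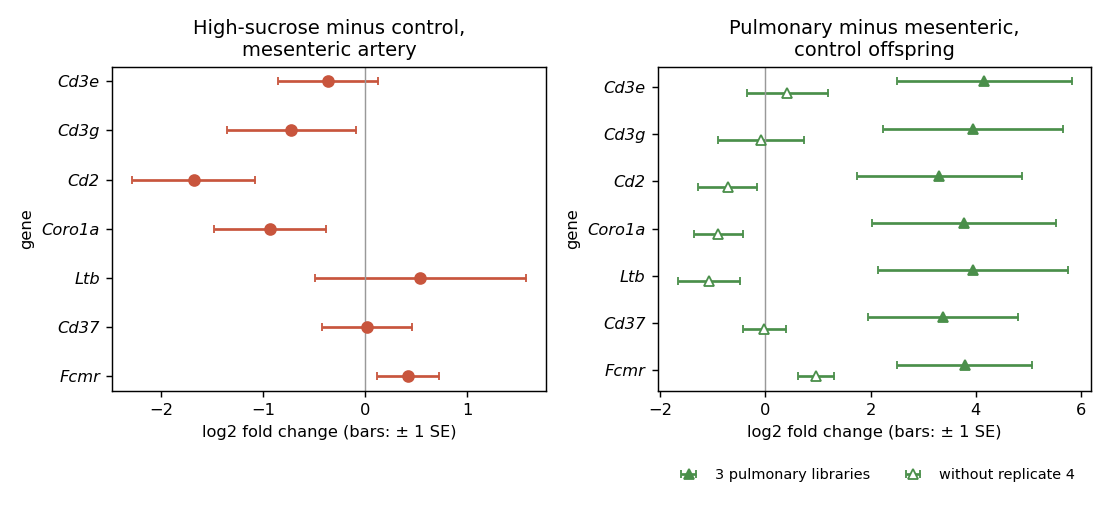
Log2 fold changes (edgeR, bars ± 1 SE) of the 7 genes between high-sucrose and control mesenteric artery (left) and between pulmonary and mesenteric artery of controls (right; open symbols without pulmonary replicate 4). On the right the values lie between 3.30 and 4.16 with 3 pulmonary libraries and between −1.07 and 0.96 without replicate 4.

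Other T cell genes did not share one direction in the mesenteric artery. Of 32 listed genes of the T cell receptor complex and its signalling that were found, 21 were tested, 10 were above and 11 below 0, and 0 passed (median −0.0013, where the median of all genes was 0.0024). Tcf7, a transcription factor of naive T cells, was at 0.74 ± 0.39 and Il2rg, the shared cytokine receptor chain, at −0.069 ± 0.45. Of 13 genes found in all leukocytes, 10 were below 0 (median −0.35), and of 7 tested genes of natural killer and cytotoxic cells 5 were below 0 (median −0.53). B and plasma cell genes had 4 of 5 below 0 (median −0.23), and macrophage genes 7 of 12 above 0 (median 0.34). None of these genes passed.

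Red cell transcripts varied with the same libraries. Hba-a2, an alpha globin, was at 2116, 2535 and 2732 CPM in mesenteric controls 1, 2 and 3, and, in the high-sucrose libraries, at 411, 190 and 3626 CPM. Summed over 8 red cell and platelet markers, the controls held 2165 to 2779 CPM and the high-sucrose libraries 203 to 3681 CPM. High-sucrose replicates 1 and 2, which were low in Coro1a, were thus the lowest mesenteric libraries for this list, and replicate 3, which was high in Ltb, the highest. Dividing-cell markers were also highest in replicate 3 among the 6 mesenteric libraries, with Mki67 at 12.8 CPM against 1.93 to 4.99 CPM. The part of red cell RNA and of dividing cells in the values of the 7 genes was not tested.

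Pulmonary and mesenteric arteries were then compared within the control offspring. It used the same 3 control mesenteric libraries as the first, so the fold changes of the 2 comparisons are not independent. All 7 members had log2 fold changes above 0, against 54.5% of 14315 genes tested, and above 3, against 2.31%, but 0 of 7 passed, where edgeR called 2 genes (0.014%). Unadjusted, 2 of 7 had a p under 0.05, against 8.53% of all genes (4.23% when only higher genes are counted, as both members were).

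Cd3e was at 30.4 ± 48.6 CPM in pulmonary and 1.74 ± 0.74 CPM in mesenteric artery (SD, n = 3 per group), a log2 fold change of 4.16 ± 1.66 (SE, adjusted p = 0.567 by edgeR). Cd3g was at 3.94 ± 1.71, Cd2 at 3.30 ± 1.57, Coro1a at 3.78 ± 1.75, Ltb at 3.95 ± 1.81 and Cd37 at 3.37 ± 1.42. Fcmr, at 3.78 ± 1.28 (adjusted p = 0.515), was the 1 member of 7 that was higher in 3 of 3 pulmonary libraries without overlap, against 6.41% of all genes. The standard deviation exceeded the mean in the pulmonary group for each of the 7 genes.

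Without pulmonary replicate 4 the values were 0.42 ± 0.77 for Cd3e, −0.088 ± 0.82 for Cd3g, −0.71 ± 0.56 for Cd2, −0.89 ± 0.47 for Coro1a, −1.07 ± 0.59 for Ltb, −0.015 ± 0.41 for Cd37 and 0.96 ± 0.35 for Fcmr (SE). Thus 5 of 7 were below 0. Fcmr remained higher in both other pulmonary libraries than in the 3 mesenteric controls (adjusted p = 0.389 by edgeR, unadjusted p = 0.031), against 14.1% of all genes higher without overlap. Ltb was lower in both (adjusted p = 0.564 by edgeR), against 13.9% lower without overlap. In this fit edgeR called 22 of 14412 genes (0.153%) and 0 members. Unadjusted, 1 of 7 members had a p under 0.05, against 1655 of the 14412 genes.

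DESeq2 called 408 genes (2.93%) in the second comparison but gave no p for any of the 7 members, because its rule for count outliers set them aside. With that rule switched off, a setting chosen after seeing the data, it called 478 genes (3.34%) and 2 of 7 members, Cd3e (adjusted p = 0.0496) and Fcmr (adjusted p = 0.0199). Limma-voom with quality weights called 33 genes and 0 members, with 4 of 7 members below 0. At an unadjusted p under 0.05 it had 0 members, against 1476 of 14315 genes.

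All 7 members had their highest level in pulmonary replicate 4, against 30.3% of 14623 genes with a mean of at least 1 CPM. It was at least 10-fold above the highest of the other 8 libraries for 7 of 7, against 4.5% of those genes. That mean includes replicate 4. Among the 13967 genes with a mean of at least 1 CPM in the other 8 libraries, which include all 7 members, the shares were 26.8% and 1.27%. Relative to the median of the other 8 it was 58.7-fold higher for Cd3e, 52.3-fold for Cd3g, 46.5-fold for Cd2, 58.6-fold for Coro1a and 60.9-fold for Ltb. Cd37 and Fcmr were 29.7-fold and 28.2-fold higher. The difference has no replicate, so it describes this library. Because the members were chosen with earlier results of these data known, the shares are a description and not an independent test.

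**Figure D3:**
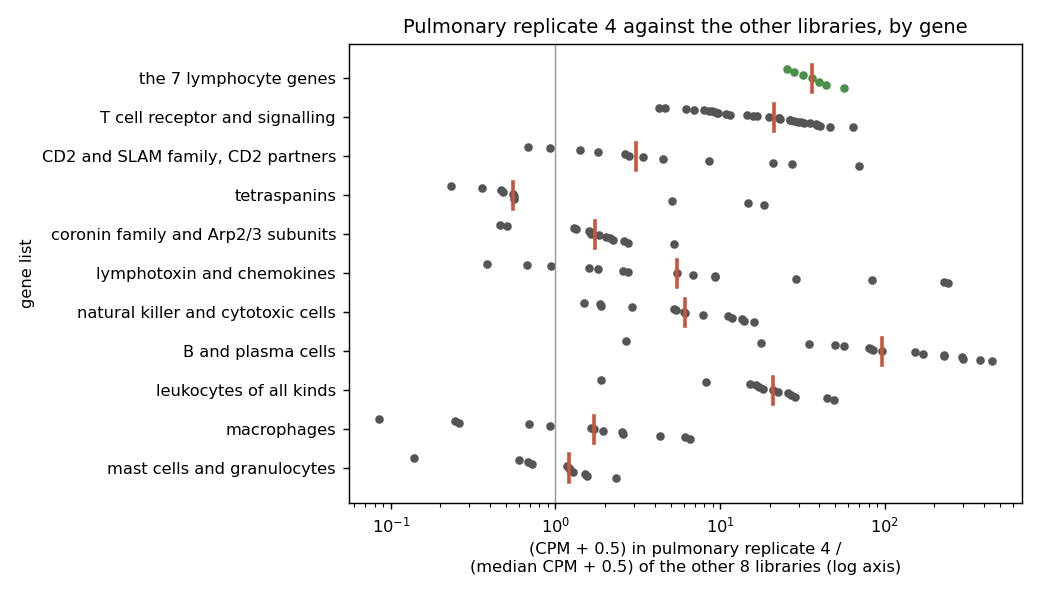
Ratio of CPM + 0.5 in pulmonary replicate 4 to the median CPM + 0.5 of the other 8 libraries (log axis) for every gene found, by list, with red bars at the list medians. The added 0.5 lowers the ratio of scarce genes. The 7 lymphocyte genes lie at 25.4 to 56.4, B and plasma cell genes have a median of 96.5, and mast cell and granulocyte genes a median of 1.20.

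Other parts of the T cell receptor machinery had the same highest library. Replicate 4 was the highest library for 32 of 32 genes of this list, with a median ratio of 21.3 to the other 8 libraries on the CPM + 0.5 scale. Cd3d, which lies between Cd3g and Cd3e, was at 31.0 CPM there and at 0.231 to 1.16 CPM elsewhere. Tcf7 was at 163 CPM against 2.84 to 11.8 CPM. Il2rg was at 232 CPM against 9.28 to 44.0 CPM, a lower ratio. In the second comparison 24 of 24 tested genes of the list were above 0 and 0 passed (median 3.21, where all genes had 0.058), while without replicate 4 the count was 9 of 24 (median −0.098).

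Partners and relatives of CD2 were mixed. Cd48, the ligand of CD2, was at 164 CPM in pulmonary replicate 4 and at 142 to 322 CPM in the other libraries. Cd2ap, an adaptor that binds the CD2 tail, was at 94.4 CPM against 81.8 to 142 CPM, and Cd2bp2 at 103 CPM against 55.2 to 97.3 CPM. Of 12 genes of this list, 8 were highest in replicate 4. Named after its values were seen, Slamf6, a lymphocyte receptor of the same family, was at 74.2 CPM there and at 0.135 to 2.40 CPM elsewhere.

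In the lymphotoxin pathway the receptor Ltbr and the ligands differed in pattern, but not every listed receptor did. Ltbr, the lymphotoxin beta receptor of stromal cells, was at 52.7 CPM in pulmonary replicate 4, inside the range of 37.7 to 76.6 CPM of the other libraries. Lta and Tnf, the neighbours of Ltb, were at 5.23 and 3.55 CPM there and at or below 0.382 and 0.573 CPM elsewhere. Cxcl13, a chemokine that attracts B cells and is made by lymphoid stroma, was at 499 CPM in replicate 4, 17.8 CPM in replicate 2, 6.46 CPM in replicate 1 and at most 2.36 CPM in the mesenteric libraries. Ccl21, a chemokine of lymphatic endothelium and lymph node stroma, was at 120 CPM in replicate 4, 20.0 and 20.1 CPM in pulmonary replicates 1 and 2 and 105 to 309 CPM in the mesenteric libraries.

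Further genes of this list were named after the values were seen. Tnfrsf14, another receptor of the list, was at 296 CPM in replicate 4 against 0.654 to 7.21 CPM elsewhere, unlike Ltbr. Ccl19, which attracts T cells through CCR7, was at 182 CPM in replicate 4 against 2.52 to 29.0 CPM elsewhere. Glycam1, a mucin of high endothelial venules, was at 123 CPM against at most 0.0949 CPM. In the second comparison 6 of 10 tested genes of the list were above 0 and 0 passed (median 0.28), and without replicate 4 the count was 3 of 10 (median −0.78).

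The relatives of Coro1a and Cd37 were mixed. Of 14 coronin and Arp2/3 genes 11 were highest in pulmonary replicate 4, with a median ratio of 1.74 on the CPM + 0.5 scale, and of 10 tetraspanins 3 were, with a median of 0.55. Coro1c, a coronin of many cell types, was at 123 CPM in pulmonary replicate 4, below the 156 to 380 CPM of the other 8 libraries. Coro1b, also widely expressed and named after its values were seen, was at 242 CPM against 96.6 to 141 CPM. Of the Arp2/3 subunits, the actin-branching complex that coronins bind, Actr2 was at 405 CPM against 204 to 286 CPM and Arpc2 at 491 CPM against 253 to 362 CPM. The tetraspanins Cd9, Cd63 and Cd151, found on many cells, were at 136, 163 and 122 CPM in replicate 4, each below all other libraries (431 to 784, 251 to 461 and 239 to 368 CPM). The 3 tetraspanins that were highest there, named after their values were seen, were Cd53, a leukocyte protein at 270 CPM against 7.13 to 27.0 CPM, Tspan32 at 24.7 CPM against 0.931 to 3.06 CPM and Cd82 at 131 CPM against 14.1 to 56.0 CPM.

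Among immunoglobulin receptors, Pigr, the neighbour of Fcmr that carries IgA and IgM across epithelia, was at 435 CPM in pulmonary replicate 4, 5.09 CPM in replicate 2, 0 counts in replicate 1 and at most 0.286 CPM in the mesenteric libraries. Fcamr, a related receptor for IgA and IgM next to Pigr, was at 15.9 CPM in replicate 4 and at most 0.344 CPM elsewhere. Fcgr2b, an inhibitory IgG receptor, was at 124 CPM against 5.88 to 35.3 CPM, and Fcgrt, the neonatal Fc receptor of endothelium and other cells, at 66.0 CPM against 103 to 169 CPM.

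Shares of counts between pairs of genes compared the makeup of the libraries, with exact (Clopper-Pearson) 95% intervals that cover counting error only, since the reads carry no molecular identifiers. Such a share depends on transcript length and was compared only across libraries. Cd3e made up 60.3% (58.2 to 62.3%) of Cd3e plus Cd3g counts in pulmonary replicate 4, within the 50 to 77.8% of the other 8 libraries. In those libraries the pair rested on few counts, and the widest interval was 41.3 to 89.0% (pulmonary replicate 2). Cd37 made up 32.8% of Cd37 plus Ptprc counts there and 20.7 to 37.6% elsewhere, where Ptprc encodes CD45, the phosphatase of all leukocytes.

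Cd3e against Ptprc gave 15.2% (14.4 to 15.9%) in replicate 4 and 2.93 to 17.3% elsewhere, highest in pulmonary replicate 1. Coro1a against Ptprc gave 60.9% (60.3 to 61.6%) in replicate 4 and 25.1 to 46.3% elsewhere. Against the B cell receptor gene Cd79a the picture differed. Cd79a made up 49.8% (49.0 to 50.6%) of Cd79a plus Ptprc counts in replicate 4 and 3.81 to 12.4% elsewhere. Cd3e accordingly made up 15.3% (14.5 to 16%) of Cd3e plus Cd79a counts there, and 23.9 to 70.7% in the other 8 libraries. Those shares rested on few counts, and the interval of mesenteric control 3 (12.6 to 38.8%) included the value of replicate 4. In pulmonary replicate 2 the interval was 16.9 to 49.3%. Fcmr made up 20.2% of Fcmr plus Cd79a counts in replicate 4 and 47.8 to 86.6% elsewhere.

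**Figure D4:**
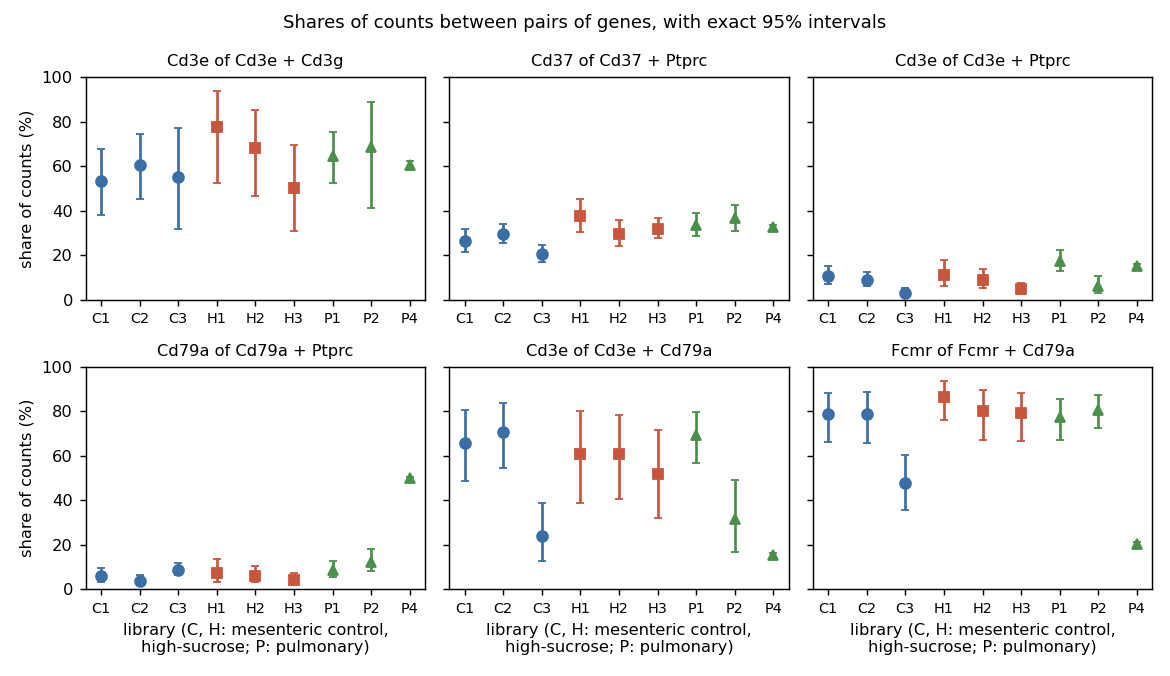
Share of counts (%) of the first gene among the counts of both, in each library, with exact 95% intervals. In pulmonary replicate 4 the share of Cd3e with Cd3g is 60.3%, inside the range of the other libraries, and the share of Cd79a with Ptprc is 49.8%, above all of them.

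Markers of other cells moved with the 7 genes in pulmonary replicate 4. B and plasma cell markers, 17 of 17 highest there, summed to 4246 CPM against 6.63 to 54.3 CPM in the other libraries, with Jchain, the joining chain of secreted antibodies, at 1679 CPM and Cd79a at 480 CPM. General leukocyte markers, 12 of 13 highest there (Cd52, at 2.00 CPM, was the exception), summed to 3507 CPM against 119 to 296 CPM, with Lcp1 at 691 CPM against 20.0 to 44.0 CPM. Natural killer and cytotoxic markers, 13 of 14 highest there, summed to 181 CPM against 8.56 to 34.3 CPM, with Klrk1 at 36.0 CPM and Cst7 at 38.5 CPM. Ccl5, the 1 exception, was at 7.36 CPM there and at 16.8 CPM in mesenteric control 3.

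Macrophage markers were highest in replicate 4 for 7 of 13 genes and summed to 1968 CPM against 333 to 719 CPM. Lyz2, a lysozyme, was at 1288 CPM in replicate 4 and at 80.2 to 232 CPM elsewhere. Mast cell and granulocyte markers, 0 of 11 highest there, summed to 25.6 CPM against 15.7 to 48.8 CPM. Dividing-cell markers, 6 of 6 highest there, summed to 567 CPM against 4.73 to 42.0 CPM, with Mki67 at 221 CPM. Lung epithelium markers were highest there for 13 of 13, with Scgb1a1 at 388 CPM, while red cell and platelet markers summed to 310 CPM against 203 to 3681 CPM. The part of these cells in the level of the 7 genes was not tested.

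**Figure D5:**
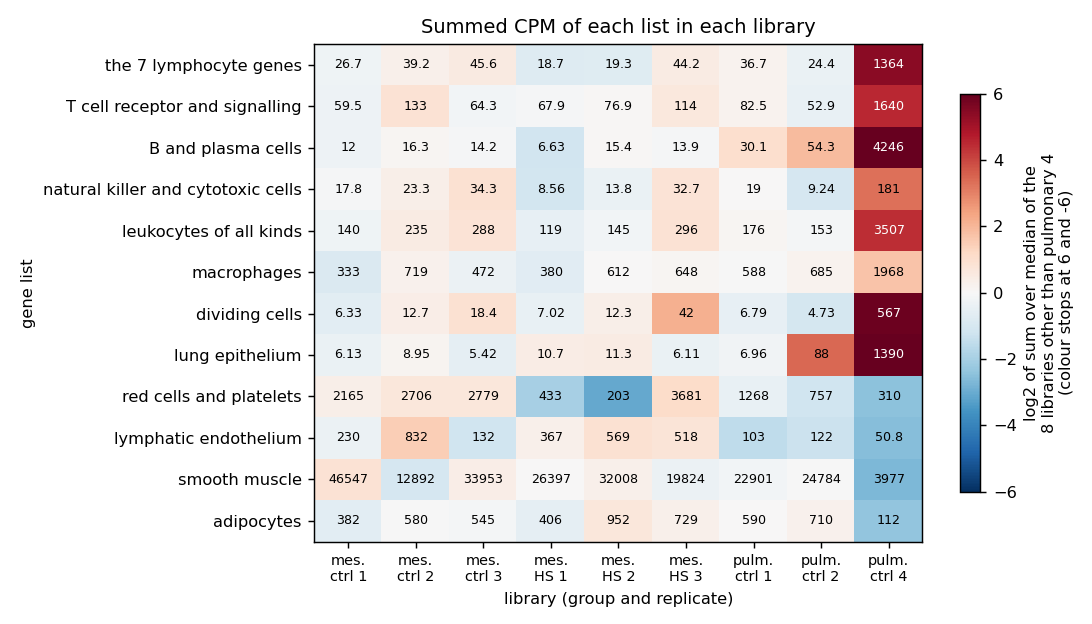
Summed CPM of 12 gene lists in each library (numbers), coloured by the log2 ratio to the median of the 8 libraries other than pulmonary replicate 4. Pulmonary replicate 4 holds 1364 CPM over the 7 lymphocyte genes against 18.7 to 45.6 CPM elsewhere, and the least smooth muscle and adipocyte RNA.

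Genes whose pattern was most like the mean of the 7 were ranked by the root mean square distance between centred log2(CPM + 0.5) profiles over 9 libraries, among 12540 other genes (median distance 1.71). These genes had a mean of at least 1 CPM over the 9 libraries, pulmonary replicate 4 included. The nearest 6 were B4galnt1 (0.16), Arhgap45 (0.20), Psd4 (0.21), Septin1 (0.22), Ubxn10 (0.22) and Pik3cd (0.22). Ubxn10 was at 0 to 0.286 CPM in 8 libraries and at 24.7 CPM in pulmonary replicate 4. It thus met that minimum only through replicate 4, and its likeness rests on that library. B4galnt1 was at 0.308 to 1.64 CPM in 8 libraries and at 51.3 CPM in pulmonary replicate 4, and Pik3cd, a leukocyte phosphoinositide kinase subunit, at 8.56 to 16.8 CPM and 350 CPM. The members themselves lay at 0.29 (Cd37) to 0.64 (Ltb) from their own mean.

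Over the 8 libraries without replicate 4 the nearest were Atox1 (0.12), B4galt4 (0.13), Arhgap45 (0.13), Cbwd1 (0.15), Med30 (0.16) and Samd9 (0.16), with a median distance of 0.51. The genes ranked were the same 12540, so their minimum mean still counted replicate 4. Arhgap45 was the gene in both lists, at 8.92 to 19.9 CPM in the 8 libraries and 353 CPM in replicate 4. All members but Cd37 (0.28) and Cd3g (0.36) lay at 0.43 or more from their own mean over these 8 libraries. Ltb (0.68) and Fcmr (0.55) lay farther from it than the median of the other genes, although each member is part of that mean.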

How the data were processed

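RNA was sequenced from 9 artery samples. Per the labels' protocols, polyadenylated RNA was captured on beads, fragmented and reverse transcribed from random primers, and the second cDNA strand was marked. The authors deposited whole-number counts per gene with no normalization, and the genome build is rn7 per the submitters' processing notes. The sources used here do not give the aligner, counting program, annotation or strand setting, so reads shared with overlapping or antisense genes cannot be separated. Each library held 30452 features, and 235 names stood on more than 1 line, none of them a member.

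Each comparison was fitted on its own 6 libraries with edgeR 4.0.16 in R 4.3.3 (TMM factors, filterByExpr, robust quasi-likelihood test), with Benjamini-Hochberg adjustment over all genes tested and a threshold of 0.05. All 7 members passed the filter on low counts in both comparisons. Standard errors were derived from the log2 fold change and its F statistic. Alternatives were other scaling factors, DESeq2 1.42.0, limma-voom (limma 3.58.1) with quality weights, other filters, all 9 libraries in 1 fit, a replicate block and each library left out. The scripts were tested on simulated data.

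Of 254 genes in the member list and 20 other lists, 241 were found by symbol. The rule names all members, the 3 genes with the highest mean CPM of each list and the 6 genes nearest in pattern. Some genes that the rule picks are not reported here. Other genes were named after their values were seen. The members and lists were chosen with earlier results of these data known. Ratios of pulmonary replicate 4 by list, with 0.5 added and no filter, were added after seeing the data. Promoters come from RefSeq (GRCr8), with all 7 members matched by symbol.

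A chi-square comparison of replicates gave 42.5 to 312 per degree of freedom, so no library was counted as a repeat of another.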

Additional observations from a re-analysis of the deposited data

How the results depend on the processing

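In the mesenteric comparison DESeq2 called 3 genes, with and without its outlier rule, where edgeR called 0, and 0 members passed under any setting. Ltb was at −0.75 with limma-voom and −0.32 with the replicate block, and ran from −1.40 to 1.11 with 1 library left out. Cd37 was at −0.035 on plain library totals, −0.092 with limma-voom and −0.016 with the replicate block, and ran from −0.45 to 0.28 with 1 library left out. The other 5 members kept their direction under every setting. In the pulmonary comparison edgeR called 2 genes, and the count was 408 with DESeq2, 478 with DESeq2 without its outlier rule, 33 with limma-voom, 38 with all 9 libraries in 1 fit, 0 with the replicate block and 0 to 22 with 1 library left out. The members called were 0, and 2 with DESeq2 without its outlier rule, a setting added after seeing the data. That rule left the 7 members without a p, so DESeq2 as planned gave no value for them. Limma-voom, which gives a deviating library less weight, put Cd3g at −0.00087, Cd2 at −0.21, Coro1a at −0.46 and Ltb at −0.55. Cd3e (0.63), Cd37 (0.49) and Fcmr (1.32) stayed above 0 with it. With 1 library left out, Cd3g ran from −0.088 to 4.49, Cd2 from −0.71 to 3.85, Coro1a from −0.89 to 4.33, Ltb from −1.07 to 4.50 and Cd37 from −0.015 to 3.90, in each case lowest without pulmonary replicate 4. Only Cd3e and Fcmr stayed above 0 with each library left out. The stricter filter removed 1 member in each comparison.

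Replicate numbers were not taken to pair the samples. Deviations of same-numbered libraries from their group means correlated at 0.204, −0.303 and 0.12 in the mesenteric comparison and at 0.182 and −0.171 in the pulmonary one. The pulmonary mean includes the deviating replicate 4, so the last 2 values cannot decide whether same-numbered libraries share animals. With the replicate block the pulmonary fit used numbers 1 and 2 only and so left out mesenteric replicate 3 and pulmonary replicate 4. It put Cd3e at −0.14, Cd3g at −0.65, Cd2 at −0.68, Coro1a at −0.52 and Ltb at −1.20, while Cd37 (0.12) and Fcmr (0.89) stayed above 0. Group means of CPM on plain library totals lay within 1 SD of those reported for 21 of 21 values. The TMM factors ran only from 0.905 to 1.08, and each pulmonary SD exceeded its mean. For the pulmonary means this check could thus not have come out otherwise. Depth limits the low values: outside pulmonary replicate 4, Cd3e, Cd3g, Cd2 and Ltb rested on 1 to 49 counts per library.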

Other observations

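Some T cell list genes varied within the mesenteric artery apart from Cd3e. Il7r, the interleukin 7 receptor chain, was at 2.89, 13.3 and 0.187 CPM in mesenteric controls 1, 2 and 3 and at 2.47, 2.66 and 9.65 CPM in the high-sucrose libraries. Gata3, a transcription factor of T helper and innate lymphoid cells, was at 1.82, 3.96 and 0.747 CPM in the controls and at 1.16, 0.475 and 6.88 CPM in the high-sucrose libraries, and at 8.13 CPM in pulmonary replicate 4. Il2ra, the alpha chain of the interleukin 2 receptor, was at 2.42, 9.12 and 1.03 CPM in the controls and at 11, 6.07 and 5.54 CPM in the high-sucrose libraries. Mesenteric control 2 was the highest control for each of the 3 genes, as it was for Cd3e, Cd3g and Cd2. That library was also the lowest control for summed smooth muscle markers, at 12892 CPM against 46547 and 33953 CPM. It was the highest control for the fibroblast, macrophage and lymphatic endothelium lists, but not for the general leukocyte or natural killer lists. The share of all genes highest in it was not counted. Il7r, Gata3 and Il2ra were named after their values were seen, and none passed the test. Madcam1, an adhesion molecule of gut venules that binds a lymphocyte integrin, was at 0.56 to 4.91 CPM in the controls, 3.47 to 15.9 CPM in the high-sucrose libraries and at most 1.29 CPM in the pulmonary libraries, replicate 4 included.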
